A study of Mus musculus with 16 samples.

Results

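Chronic ethanol feeding was compared with pair feeding in the livers of mice that received no iodomethylcholine (IMC), which blocks the bacterial enzyme in the gut that makes trimethylamine from choline. The members are 8 of the 16 sequenced livers: 4 mice on the ethanol diet with vehicle (EtOH vehicle, libraries 1, 3, 5 and 7) and 4 mice on the pair diet with vehicle (Pair vehicle, libraries 10, 12, 14 and 16), defined by their diet and treatment labels. Earlier results of these data were known when the members and the gene lists used below were chosen. All 16 animals were female C57BL6/J mice aged 9 to 11 weeks at the start, and the vehicle mice were not given IMC. Ethanol-fed mice drank a Lieber-DeCarli liquid diet in which ethanol rose from 1% to 6% vol/vol (32% of kcal) over 25 days, and pair-fed mice received the same calories with maltose dextrin in place of ethanol. The other 8 livers, from ethanol-fed and pair-fed mice given 0.06% wt/wt IMC in the diet (EtOH IMC and Pair IMC, 4 each), entered the common scale and the estimate of spread behind every test, and served to ask whether the same genes moved in separate animals. With only the 8 vehicle libraries fitted, 1382 genes were called, of which 1196 were among the 1496 given below. Only females of a single strain were studied at a single time, and whole liver was sequenced, so that every value is a sum over the cell types of the organ.

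Ethanol is oxidized in hepatocytes by alcohol dehydrogenase, by cytochrome P450 2E1 and by catalase, and the acetaldehyde formed is cleared by aldehyde dehydrogenases. Chronic intake is known to engage the nuclear receptors that sense foreign chemicals, CAR (Nr1i3) and PXR (Nr1i2), whose targets are the P450, glutathione S-transferase, glucuronosyltransferase and transporter genes that detoxify drugs. It is also known to lower hepcidin, the liver hormone that limits iron uptake, and to change fat synthesis and fat burning.

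Between 9632659 and 12439303 reads were counted on genes in the 8 vehicle libraries, and albumin took 7.53% to 13.04% of them. The values below are normalized counts brought to a common scale over all 16 libraries (rescaled counts), given by mouse in the order of the library numbers, and they compare a gene between mice, not one gene with another. Of 12207 genes with a rescaled count of at least 10 in at least 4 of the 8 livers, 1496 differed between the diets (12.3%; limma, Benjamini-Hochberg adjusted p under 0.05). In ethanol-fed livers 799 genes were higher (6.55%) and 697 were lower (5.71%), with a median log2 fold change of 0.55 among those that rose and -0.45 among those that fell. Counts of genes called within lists of related genes, given below, are to be read beside these shares. Changes beyond 1 on the log2 scale numbered 110 up and 63 down, and the median over all genes tested was -0.01. The number called was 807 without EtOH 5 and 980 without Pair 14, and of these 784 and 919 were among the 1496. The 4 mice of 1 diet lay wholly apart from the 4 of the other in 2349 genes (19.2%), and in 1308 of the 1496. For each such gene an exact permutation test over the 70 divisions of 8 mice gives its smallest possible p, 0.0286 (two-sided). As deposited, the counts were scaled within each diet, which shifts the median gene by 0.18 on the log2 scale toward ethanol. On that scale 2806 genes were higher and 200 lower (93.35% higher, against 53.4% after rescaling), so that changes near this size depend on the scale chosen.

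**Figure D1:**
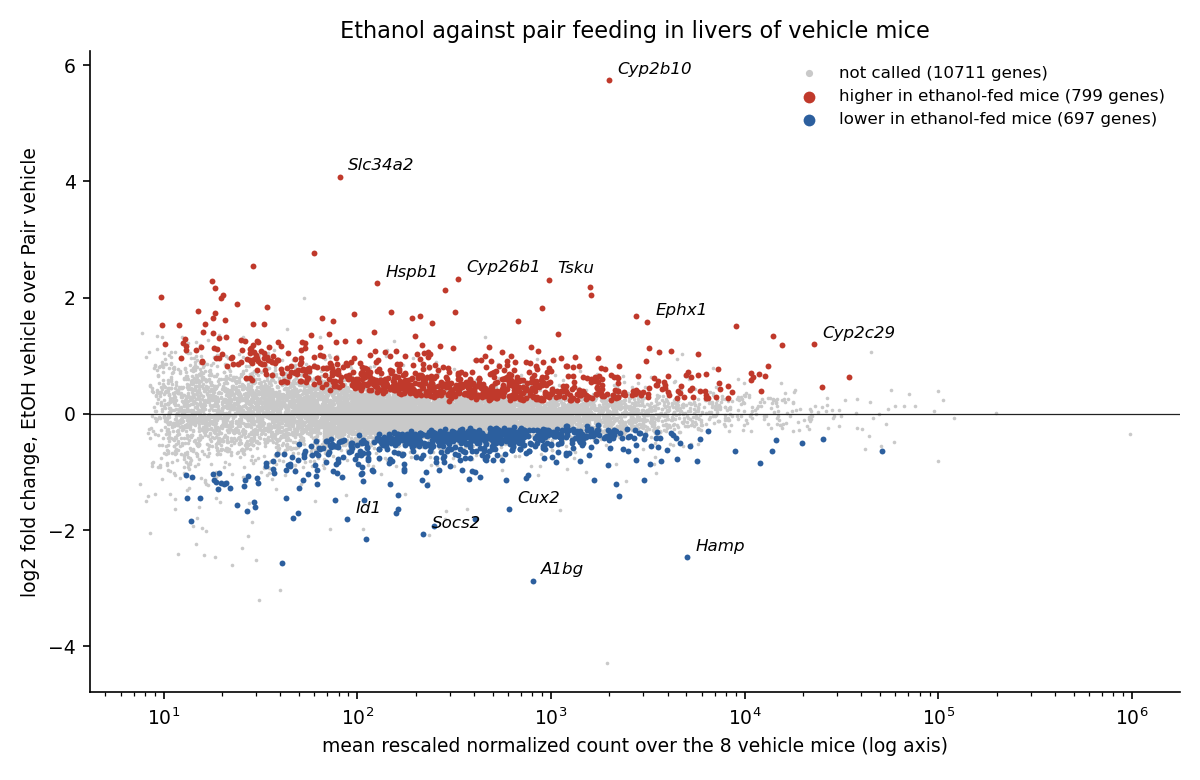
Log2 fold change of EtOH vehicle over Pair vehicle (vertical axis) against the mean rescaled count of the 8 livers (log axis) for 12207 genes, each point a gene, with 799 called higher in red and 697 called lower in blue. Cyp2b10 stands highest at 5.75, and Hamp is the called gene with the largest fall at a mean count above 1000.

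Drug and toxin metabolism gave the list with the most rising genes. Of 39 tested members of the CYP1, CYP2 and CYP3 families and their receptors, 13 rose and 1 fell, against 6.55% and 5.71% of all genes, and leaving out any 1 mouse left 12 or 13 of the list higher. With only the 8 vehicle libraries fitted, 13 rose and 3 fell. Cyp2b10, the classical target of CAR, had the largest rise of any gene tested. Its rescaled counts were 3504, 3011, 2746 and 6389.7 in EtOH vehicle mice and 66.4, 63.2, 88.6 and 56.6 in Pair vehicle mice, a 56.9-fold difference of means, and the gene rose by 5.75 ± 0.37 (SE) on the log2 scale (adjusted p = 1.49e-07). It lies on chromosome 7, 25897620 to 25926624 (GRCm38, GENCODE vM21), ahead of Cyp2b13 (26061497 to 26096197) and Cyp2b9 (26173411 to 26210661) in the same cluster. Both neighbours, named after their values were seen, also rose, by far less. Cyp2b9 counted 14577, 16062, 13836 and 13717 in EtOH vehicle mice and 9956, 7428, 10633 and 8530.0 in Pair vehicle mice, and rose by 0.68 ± 0.12 (SE) on the log2 scale (adjusted p = 0.00181). Cyp2b13 counted 4840.1, 4413, 5442 and 4737 in EtOH vehicle mice and 3300.3, 2107, 2435 and 1695 in Pair vehicle mice, and rose by 1.06 ± 0.22 (SE) on the log2 scale (adjusted p = 0.00466). In neither did the diets overlap.

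Members of the Cyp2c family, enzymes of drug, fatty acid and steroid oxidation that lie together on chromosome 19, moved unequally. Cyp2c29 counted 28755, 32531, 24021 and 42146 in EtOH vehicle mice and 13632, 12324, 15079 and 13306 in Pair vehicle mice, and rose by 1.20 ± 0.18 (SE) on the log2 scale (adjusted p = 0.00078). Cyp2c37 counted 21034, 21482, 16482 and 21195 in EtOH vehicle mice and 8608, 6948, 8871 and 7166 in Pair vehicle mice, and rose by 1.34 ± 0.13 (SE) on the log2 scale (adjusted p = 1.14e-05). Cyp2c50 and Cyp2c54 showed the same separation of every ethanol-fed from every pair-fed mouse. Cyp2c50 counted 10632, 15153, 10862 and 16871 in EtOH vehicle mice and 6193, 5278, 4051 and 3309 in Pair vehicle mice, and rose by 1.52 ± 0.19 (SE) on the log2 scale (adjusted p = 0.00024). Cyp2c54 counted 1872, 3132, 2193 and 3171 in EtOH vehicle mice and 722, 646, 385 and 767 in Pair vehicle mice, and rose by 2.05 ± 0.35 (SE) on the log2 scale (adjusted p = 0.00181). Other members of the cluster, among them Cyp2c38, Cyp2c39, Cyp2c40, Cyp2c67, Cyp2c68 and Cyp2c69, did not pass the test. How reads shared by near-identical copies were counted is not given in the sources used here, so the split between single Cyp2b, Cyp2c, Cyp3a and Gstm genes is uncertain. Cyp3a11, the main drug-oxidizing CYP3A of mouse liver and a target of PXR, rose by 0.64 ± 0.15 (SE) on the log2 scale (adjusted p = 0.0101), with 47556, 38256, 35779 and 47018 in EtOH vehicle mice and 29257, 24706, 25857 and 27803 in Pair vehicle mice. No receptor of the list rose. Nr1i3 differed by -0.21 ± 0.16 on the log2 scale (adjusted p = 0.419), and Por, the electron donor of all these enzymes, by -0.19 ± 0.21 (adjusted p = 0.589). Nr1i2 differed by -0.27 ± 0.08 (adjusted p = 0.0418), a difference that missed the threshold on the deposited scale (adjusted p = 0.492) and when any of 7 of the 8 mice was left out (0.0855 without EtOH 1, 0.0839 without EtOH 3, 0.103 without EtOH 5, 0.0584 without EtOH 7, 0.0637 without Pair 12, 0.111 without Pair 14 and 0.0767 without Pair 16).

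Conjugating enzymes and exporters rose beside them. Of 33 genes of glutathione metabolism and the NRF2 response 9 rose and none fell, and between 7 and 10 rose when 1 mouse was left out. Glutathione S-transferases couple glutathione to reactive compounds, and 3 that rose by more than 1 on the log2 scale belong to the mu class on chromosome 3. Gstm3 counted 1154, 2683, 2404 and 4207 in EtOH vehicle mice and 666, 684, 543 and 297 in Pair vehicle mice, and rose by 2.18 ± 0.36 (SE) on the log2 scale (adjusted p = 0.00141). Gstm1, named after its values were seen, counted 15979.7, 22717, 20752 and 27916 in EtOH vehicle mice and 9408, 9083, 10774 and 8347 in Pair vehicle mice, and rose by 1.19 ± 0.21 (SE) on the log2 scale (adjusted p = 0.00201). Gstm4 counted 1329, 1511, 1609.7 and 1808 in EtOH vehicle mice and 666, 579, 523 and 636 in Pair vehicle mice, and rose by 1.38 ± 0.15 (SE) on the log2 scale (adjusted p = 3.64e-05). In all 3 the lowest ethanol-fed mouse stood above the highest pair-fed mouse. Nqo1, the quinone reductase, rose by 0.94 ± 0.15 (SE) on the log2 scale (adjusted p = 0.00141), and Srxn1, the sulfiredoxin that repairs peroxiredoxins, rose by 1.002 ± 0.17 (SE) on the log2 scale (adjusted p = 0.00156). Other members gave no call. The rate-limiting enzyme of glutathione synthesis Gclc (0.22 ± 0.18, adjusted p = 0.457), Hmox1, Txnrd1 and the regulator Nfe2l2 did not pass the test.

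Ephx1, the microsomal epoxide hydrolase, counted 4505, 4435, 4996 and 4859.7 in EtOH vehicle mice and 1382, 1291, 1849 and 1802 in Pair vehicle mice, and rose by 1.59 ± 0.22 (SE) on the log2 scale (adjusted p = 0.000547). Ugt1a9, which attaches glucuronic acid to phenols and drugs, counted 1049.6, 1264, 1692 and 1619 in EtOH vehicle mice and 408, 329, 439 and 383 in Pair vehicle mice, and rose by 1.83 ± 0.15 (SE) on the log2 scale (adjusted p = 3.46e-06). Of 15 glucuronosyltransferases 5 rose and 1 fell, but 2 rose without EtOH 3 and 3 without EtOH 5, EtOH 7, Pair 12 or Pair 16, and the fall was lost without any mouse other than EtOH 3. Transcripts of the Ugt1a locus share their last exons, so values of its single genes are uncertain. The ethanol-fed mice lay above all pair-fed mice for both genes. The basolateral efflux pumps for bile acid and drug conjugates rose as well. Abcc3 counted 4264, 4468, 3984 and 4889.7 in EtOH vehicle mice and 1828, 1779, 2267 and 2150.5 in Pair vehicle mice, and rose by 1.14 ± 0.13 (SE) on the log2 scale (adjusted p = 5.54e-05). Abcc4 counted 147, 218, 278 and 278 in EtOH vehicle mice and 88.6, 71.9, 74.6 and 38.4 in Pair vehicle mice, and rose by 1.75 ± 0.29 (SE) on the log2 scale (adjusted p = 0.00141). Cyp26b1, a retinoic acid hydroxylase outside these lists, counted 486, 405, 746 and 540.1 in EtOH vehicle mice and 78.6, 163, 51.3 and 183 in Pair vehicle mice, and rose by 2.33 ± 0.40 (SE) on the log2 scale (adjusted p = 0.00183).

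**Figure D2:**
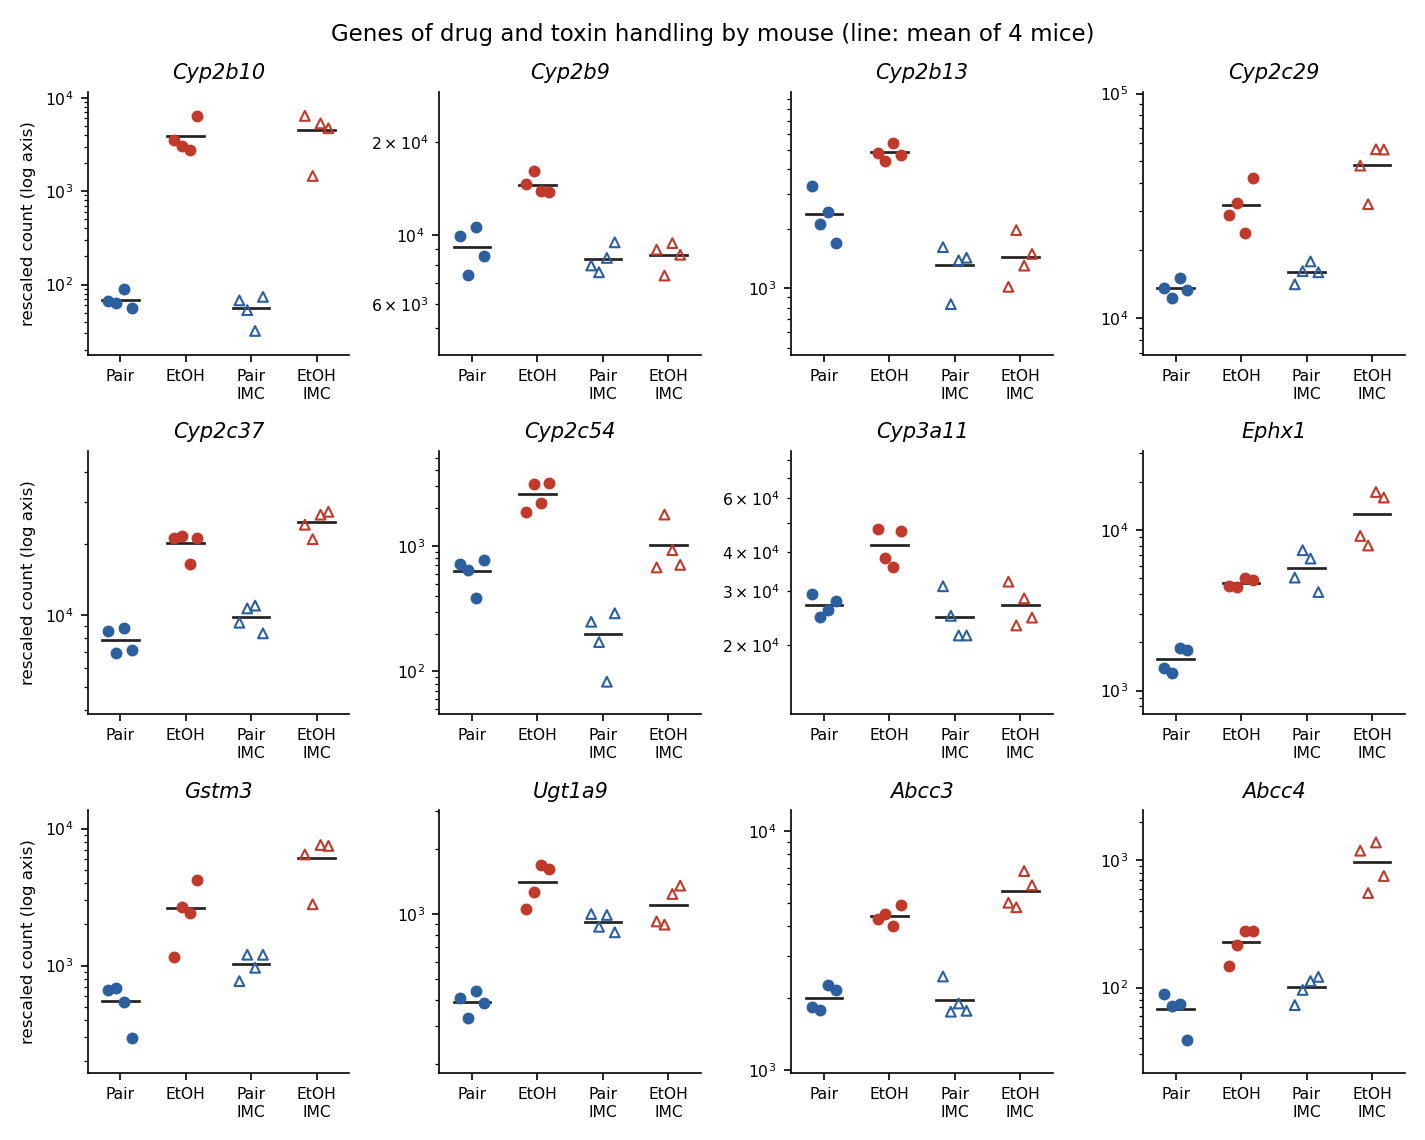
Rescaled counts by mouse (log axes) of 12 genes of drug and toxin handling, with pair-fed mice in blue and ethanol-fed mice in red, vehicle mice as filled circles and IMC mice as open triangles, and the mean of 4 mice as a line. In vehicle mice no ethanol-fed value overlaps a pair-fed value in any of the 12 panels, whereas Cyp2b9, Cyp2b13, Cyp3a11 and Ugt1a9 overlap in IMC mice.

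Cytosolic chaperones were another group of rising genes. Of 15 tested heat shock genes 7 rose and none fell, and the count stayed at 7 whichever mouse was left out. Hspb1, the small heat shock protein HSP27, counted 149.7, 292, 216 and 183 in EtOH vehicle mice and 52.0, 47.6, 29.1 and 43.5 in Pair vehicle mice, and rose by 2.25 ± 0.29 (SE) on the log2 scale (adjusted p = 0.000269). Hsp90aa1, the inducible HSP90, counted 4219.9, 5156, 4369 and 3044 in EtOH vehicle mice and 1276, 1396, 1081 and 1432 in Pair vehicle mice, and rose by 1.68 ± 0.24 (SE) on the log2 scale (adjusted p = 0.000552). Its constitutive partner Hsp90ab1 rose by 0.63 ± 0.12 (SE) on the log2 scale (adjusted p = 0.00277). Hspa4l and Hsph1 are nucleotide exchange factors that recharge HSP70. Hspa4l counted 624, 996, 744 and 684 in EtOH vehicle mice and 402, 387, 329 and 319 in Pair vehicle mice, and rose by 1.07 ± 0.15 (SE) on the log2 scale (adjusted p = 0.000471). Hsph1 counted 1126, 1386, 1200.4 and 895 in EtOH vehicle mice and 462, 746, 419.6 and 577 in Pair vehicle mice, and rose by 1.08 ± 0.26 (SE) on the log2 scale (adjusted p = 0.0131). The diets were apart in each of these genes. Hspa8, the constitutive HSP70, completed the group and rose by 0.82 ± 0.19 (SE) on the log2 scale (adjusted p = 0.0115), and its J-domain partner Dnaja1 rose by 0.64 ± 0.14 (SE) on the log2 scale (adjusted p = 0.00724). Hsph1, Hspa8 and Dnaja1 are list members named after their values were seen, as were the HSP90 partners Fkbp4 and Stip1, which are not on the list. Fkbp4 rose by 0.67 ± 0.11 (SE) on the log2 scale (adjusted p = 0.00181) and Stip1 rose by 0.89 ± 0.16 (SE) on the log2 scale (adjusted p = 0.00198).

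Other chaperones gave no call. The stress-inducible HSP70 gene Hspa1b counted 101, 61.6, 88.5 and 26.1 in EtOH vehicle mice and 64.2, 119.6, 11.7 and 39.5 in Pair vehicle mice, with the diets overlapping (0.48 ± 0.61, adjusted p = 0.638), and Hspa1a was below the filter on low values. Dnajb1, Bag3 and Hspb8 did not pass the test, nor did the mitochondrial chaperones Hspd1 (0.21 ± 0.08, adjusted p = 0.101) and Hspe1 (0.27 ± 0.10, adjusted p = 0.0929). Of 20 chaperones and folding enzymes of the endoplasmic reticulum none rose and 1, Herpud1, fell (-0.85 ± 0.19 (SE), adjusted p = 0.00878). That share is near the 5.71% of all genes that fell. Without Pair 12 2 of the 20 rose, and without Pair 10 2 fell.

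Heat shock factor 1 binds inverted repeats of the triplet GAA, and promoter windows of the chaperones were searched for 3 such units in a row. The motif, GAANNTTCNNGAA or TTCNNGAANNTTC, covers both strands and its matches may overlap. It was present in 198 of 32851 RefSeq promoter windows of 300 bases (250 before and 50 after a transcription start, GRCm38.p6), or 0.603%. Windows were at hand for 11 of the 15 heat shock genes, and 3 held a match: Hsph1, which rose, and the divergent pair Hspd1 and Hspe1, which did not pass the test. Chordc1, an HSP90 co-chaperone looked at after its values were seen, held 3 overlapping matches and rose by 0.58 ± 0.15 (SE) on the log2 scale (adjusted p = 0.0211), with adjusted p values of 0.0648 without EtOH 3 and 0.0668 without Pair 14. Fkbp4, Stip1 and Ahsa1 rose too and were searched in the same way after their values were seen, and their windows held no match. The sites are shown to let the matched genes that rose be set beside the one that did not, with the motif in capitals, read 5′ to 3′ on the gene's strand.
Hsph1 (chr5:149636280-149636309, minus strand): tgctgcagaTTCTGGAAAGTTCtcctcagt
Chordc1 (chr9:18292259-18292288, plus strand): accgGAACGTTCGGGAAAATTCCTGAAgca
Hspe1 (chr1:55088053-55088082, plus strand): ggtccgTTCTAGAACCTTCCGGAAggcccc
The Hsph1 match starts 15 bases after the transcription start. In Hspe1 2 matches overlap by 8 bases, and they start 89 and 84 bases before the transcription start. Among tested genes with a window, 0.588% held a match, against 6 of 631 that rose (0.951%) and 6 of 547 that fell (1.10%). These shares rest on 6 genes each, and a match is not shown to be a bound site.

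Genes of iron handling moved in both directions, with 4 of 19 higher and 3 lower, against 6.55% and 5.71% of all genes. Hamp, the gene of hepcidin, lies on chromosome 7, 30942368 to 30944032 and had the largest fall of the called genes with a mean count above 1000. Its counts were 1615, 2723, 752 and 1039 in EtOH vehicle mice and 2757, 9942, 10532 and 11122 in Pair vehicle mice, and it fell by 2.47 ± 0.47 (SE) on the log2 scale (adjusted p = 0.00317). The diets did not overlap, but Pair 10 was far below the other pair-fed mice and just above EtOH 3. Its neighbouring copy Hamp2 did not pass the test (-0.51 ± 0.36, adjusted p = 0.368), and how reads shared by the copies were counted is not given in the sources used here.

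Hepcidin is driven by bone morphogenetic proteins through SMAD factors, and other targets of that pathway were read beside it. Id1, a SMAD target, counted 35.6, 40.4, 35.4 and 39.1 in EtOH vehicle mice and 101, 154, 197 and 106 in Pair vehicle mice, and fell by 1.81 ± 0.35 (SE) on the log2 scale (adjusted p = 0.0039). The 4 ethanol-fed values lay close together, all below the lowest pair-fed value. Atoh8, chosen after its values were seen, counted 151, 117, 107 and 88.2 in EtOH vehicle mice and 203, 343, 231 and 157 in Pair vehicle mice, and fell by 0.97 ± 0.22 (SE) on the log2 scale (adjusted p = 0.00931). Smad7, the pathway's own inhibitor, counted 99.8, 93.5, 104 and 128 in EtOH vehicle mice and 125, 186, 288 and 177 in Pair vehicle mice, with EtOH 7 just above Pair 10 (-0.81 ± 0.25 (SE), adjusted p = 0.0442). Its call was lost when any of 7 mice was left out, with adjusted p values of 0.0908 without EtOH 1, 0.0989 without EtOH 3, 0.096 without EtOH 5, 0.0524 without EtOH 7, 0.0752 without Pair 12, 0.14 without Pair 14 and 0.0631 without Pair 16, and on the deposited scale (0.0805). Id2 (-0.66, adjusted p = 0.107), Id3 (-0.70, adjusted p = 0.143) and the ligand Bmp6 (-0.07, adjusted p = 0.9) did not pass the test. The Hamp promoter is shown because it carries the SMAD motif GGCGCC, in capitals, which starts 109 bases before the transcription start. The 250 bases before the start are chr7:30944030-30944279, read on the minus strand.
Hamp: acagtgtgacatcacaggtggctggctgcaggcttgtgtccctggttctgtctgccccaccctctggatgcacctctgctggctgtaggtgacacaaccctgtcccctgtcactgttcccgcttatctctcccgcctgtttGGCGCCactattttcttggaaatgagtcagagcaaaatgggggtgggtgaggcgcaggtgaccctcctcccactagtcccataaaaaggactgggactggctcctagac
GGCGCC reads the same on both strands and is no rarity: 11.9% of all 32851 windows and 24.0% of tested genes with a window held it, 20.9% of those that rose and 24.3% of those that fell. Of the iron genes 10 had a window, and 2, Hamp and Tfrc, held the motif. Atoh8, searched after its values were seen, had a window without it.

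Of the transcripts for iron uptake and hepcidin control, 4 were higher. Tfrc, the transferrin receptor, counted 879, 1101, 1159.9 and 1148 in EtOH vehicle mice and 547, 421, 343 and 675 in Pair vehicle mice, and rose by 1.15 ± 0.21 (SE) on the log2 scale (adjusted p = 0.00294). Steap3, the endosomal ferrireductase that works with it, counted 382, 352, 349.6 and 328 in EtOH vehicle mice and 214, 194, 196 and 205 in Pair vehicle mice, and rose by 0.80 ± 0.12 (SE) on the log2 scale (adjusted p = 0.000634). Tmprss6, the protease that cleaves the hepcidin co-receptor, rose by 0.32 ± 0.07 (SE) on the log2 scale (adjusted p = 0.00896). Each separated the diets completely. Hfe, which promotes hepcidin expression, was the fourth gene to rise (0.28 ± 0.09 (SE), adjusted p = 0.0426), with adjusted p values of 0.124 without EtOH 1, 0.0768 without EtOH 5, 0.0955 without EtOH 7, 0.0956 without Pair 10, 0.104 without Pair 14 and 0.0555 without Pair 16. The iron exporter Slc40a1 (-0.27 ± 0.14, adjusted p = 0.21), both ferritin chains, Trf and the uptake genes Tfr2, Slc11a2 and Slc39a14 did not pass the test.

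Among 23 genes of growth hormone signaling and sex-biased liver expression, 5 fell and 1 rose, against 5.71% and 6.55% of all genes. The number that fell was 3 without EtOH 3, EtOH 5, EtOH 7 or Pair 10 and on the deposited scale, where 3 rose, and the rise was lost without any of 6 mice (EtOH 1, 3 and 7 and Pair 10, 12 and 14). Socs2, the feedback inhibitor induced by growth hormone through STAT5, counted 97.1, 63.7, 96.0 and 75.2 in EtOH vehicle mice and 413, 258, 288 and 464 in Pair vehicle mice, and fell by 2.06 ± 0.27 (SE) on the log2 scale (adjusted p = 0.000296). Cux2, a female-biased transcription factor, counted 258, 369, 190.4 and 386 in EtOH vehicle mice and 956, 812, 1039.8 and 826 in Pair vehicle mice, and fell by 1.64 ± 0.24 (SE) on the log2 scale (adjusted p = 0.000598). No ethanol-fed mouse reached the lowest pair-fed mouse in either gene. A1bg, another female-biased gene, varied widely, with 176, 81.8, 570.3 and 51.1 in EtOH vehicle mice and 513, 1193, 628 and 3228 in Pair vehicle mice. It fell by 2.87 ± 0.69 (SE) on the log2 scale (adjusted p = 0.0128) although EtOH 5 overlapped the pair-fed range. Cish, a second STAT5 target, differed by -0.88 ± 0.29 and did not pass (adjusted p = 0.053). Igf1, the main hormone product of the axis, counted 4958, 4372, 4628 and 4835 in EtOH vehicle mice and 4143, 4339.7, 4924 and 6731 in Pair vehicle mice (-0.07 ± 0.14, adjusted p = 0.774). Of 11 Mup genes, which growth hormone also controls, 1 fell and none rose. Of these 11, 9 had a log2 fold change above 0, with a median of 0.35.

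**Figure D3:**
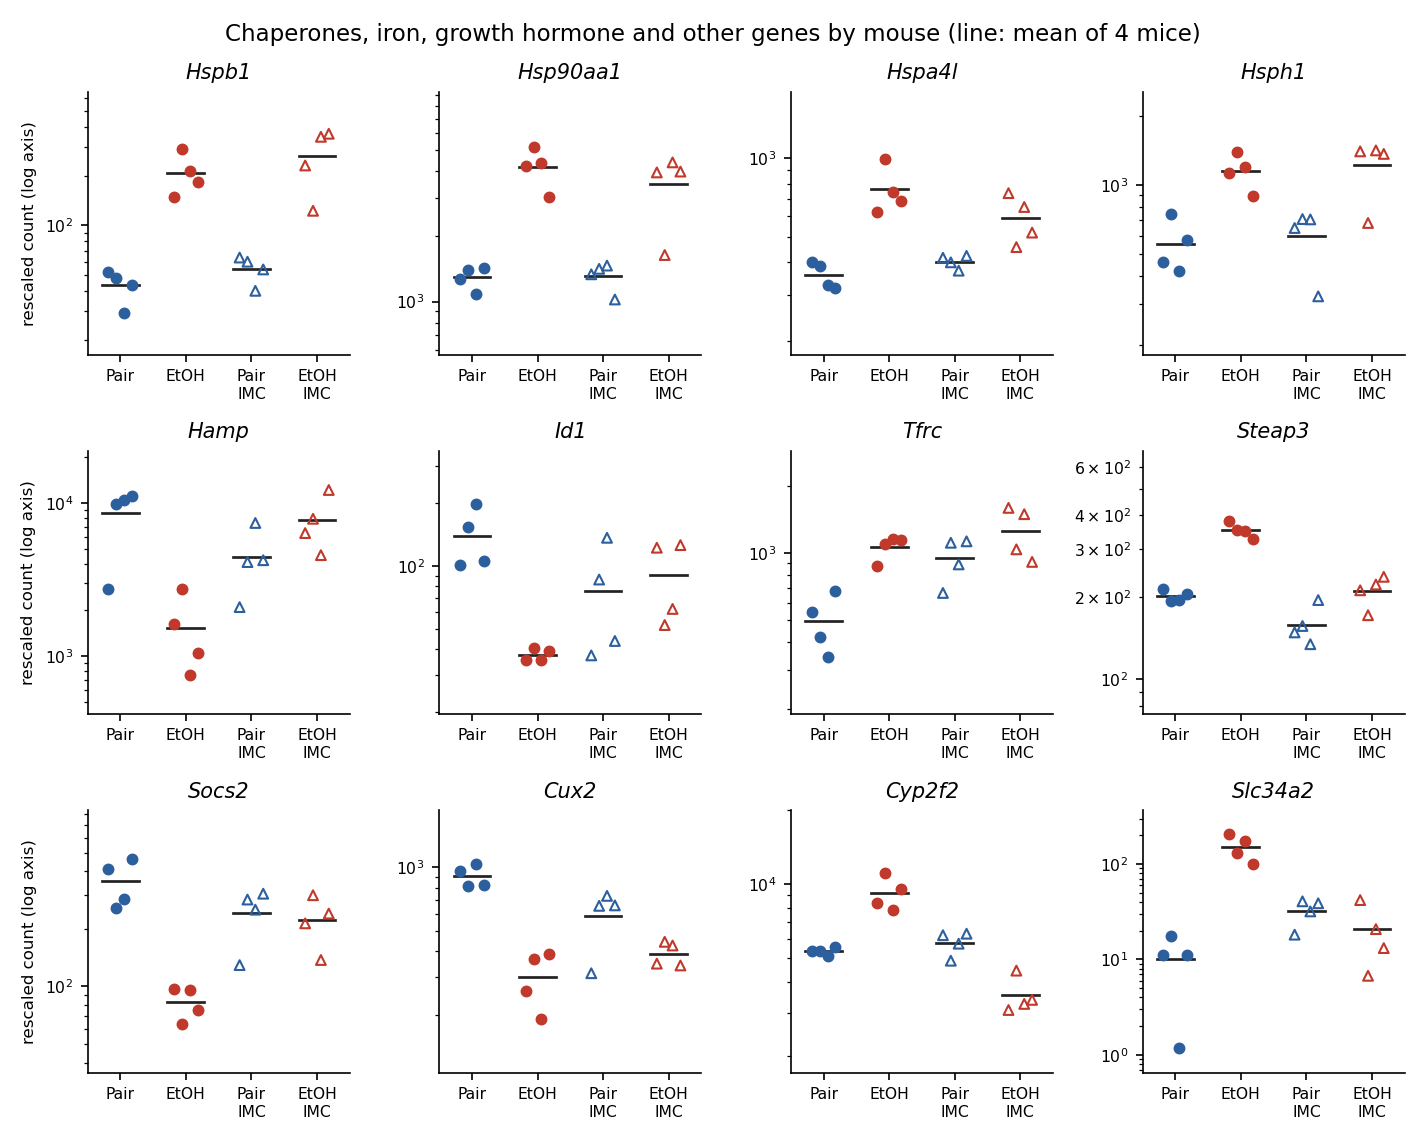
Rescaled counts by mouse (log axes) of chaperone, iron and growth hormone genes and of Cyp2f2 and Slc34a2, with pair-fed mice in blue and ethanol-fed mice in red, vehicle mice as filled circles, IMC mice as open triangles, and the mean of 4 mice as a line. The filled circles of the 2 diets do not overlap in any of the 12 panels, while the open triangles of IMC mice overlap for Hsph1, Hamp, Id1, Tfrc, Steap3, Socs2, Cux2 and Slc34a2.

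Of 13 tested genes of ethanol oxidation 3 rose and 1, Adh7, fell. The fall was lost without EtOH 3, EtOH 5, EtOH 7, Pair 10 or Pair 14 and on the deposited scale. Aldh1a1, a cytosolic aldehyde dehydrogenase, counted 9604, 14089, 13878 and 15628 in EtOH vehicle mice and 9864, 8899, 8629 and 5497 in Pair vehicle mice, and rose by 0.70 ± 0.17 (SE) on the log2 scale (adjusted p = 0.0129), with EtOH 1 inside the pair-fed range. Aldh1b1, its mitochondrial relative, counted 1745, 2147, 1635 and 2208 in EtOH vehicle mice and 1147, 1258, 1149 and 1546 in Pair vehicle mice, and rose by 0.60 ± 0.13 (SE) on the log2 scale (adjusted p = 0.0082). Adh1, the main liver alcohol dehydrogenase, counted 26374, 30089, 29295 and 30208 in EtOH vehicle mice and 19146, 18577, 22934 and 24321 in Pair vehicle mice, apart in every mouse (0.46 ± 0.14 (SE), adjusted p = 0.0393). Its call was not firm, with adjusted p values of 0.0513 without EtOH 1, 0.0851 without EtOH 3, 0.0865 without EtOH 5, 0.0909 without EtOH 7, 0.0956 without Pair 10, 0.0968 without Pair 12 and 0.0549 without Pair 14. Cyp2e1, the P450 best known for induction by ethanol, largely by stabilization of its protein, counted 46521, 47848, 47791 and 52971 in EtOH vehicle mice and 67821, 59920, 82108 and 65199.8 in Pair vehicle mice. All 4 ethanol-fed values were below all pair-fed values, but the difference of -0.49 ± 0.20 did not pass (adjusted p = 0.126). Aldh2, which clears acetaldehyde in mitochondria, did not pass either (-0.05 ± 0.10, adjusted p = 0.794).

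Fat metabolism showed scattered calls. Of 19 genes of fatty acid synthesis 3 rose and 1, Elovl5, fell; the fall of Elovl5 was lost without EtOH 3, EtOH 5, EtOH 7, Pair 10 or Pair 12 and on the deposited scale, where 7 of the list rose and none fell, and 2 fell without Pair 16. Fasn, the fatty acid synthase, counted 14903, 15651, 14115 and 17563 in EtOH vehicle mice and 9769, 12512, 8794 and 8682 in Pair vehicle mice, and rose by 0.66 ± 0.17 (SE) on the log2 scale (adjusted p = 0.0174); the adjusted p was 0.0531 without EtOH 7 and 0.052 without Pair 14. Scd2, a minor desaturase in liver, rose by 1.05 ± 0.18 (SE) on the log2 scale (adjusted p = 0.00181), and Agpat2, which makes phosphatidic acid, rose by 0.61 ± 0.12 (SE) on the log2 scale (adjusted p = 0.00361). The main hepatic desaturase Scd1 counted 95516, 75164, 57154 and 61708 in EtOH vehicle mice and 107830, 127676, 165851 and 105397 in Pair vehicle mice, every ethanol-fed mouse below every pair-fed mouse, and did not pass (-0.81 ± 0.33 (SE), adjusted p = 0.112). With only the 8 vehicle libraries fitted, 3 of the 19 genes rose and 4 fell. Of 24 genes of cholesterol synthesis 1 fell, a call lost without any 1 of the 8 mice, and none rose. That share is near the 5.71% of all genes that fell.

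Of 30 genes of fatty acid oxidation 5 fell and none rose. On the deposited scale 2 fell and 5 rose, and the list's median of -0.10 became 0.09. The number that fell was 1 without EtOH 3 or Pair 14 and 2 without EtOH 1, EtOH 5, EtOH 7, Pair 10 or Pair 16, and 1 rose without Pair 14 or Pair 16. Cpt1a, the gate of mitochondrial fatty acid import, counted 4126, 3769, 4526 and 4525 in EtOH vehicle mice and 6122, 6830.4, 6574 and 5244 in Pair vehicle mice, and fell by 0.54 ± 0.12 (SE) on the log2 scale (adjusted p = 0.00843). Its ethanol-fed values were all below its pair-fed values. Of 21 genes of lipid droplets 4 fell and none rose, against 2 and 1 on the deposited scale. Pnpla2, the adipose triglyceride lipase, counted 467, 518, 484 and 556 in EtOH vehicle mice and 639, 769, 808 and 697 in Pair vehicle mice, and fell by 0.52 ± 0.10 (SE) on the log2 scale (adjusted p = 0.00294). Fabp5, a fatty acid binding protein, counted 149, 174, 146 and 165 in EtOH vehicle mice and 354, 547, 372 and 1323 in Pair vehicle mice, and fell by 1.81 ± 0.37 (SE) on the log2 scale (adjusted p = 0.00511). The diets were apart for both, and Pair 16 held the highest Fabp5 value. The droplet coat gene Plin2 did not pass (-0.32 ± 0.18, adjusted p = 0.264).

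In bile acid metabolism 5 of 26 genes rose and 1 fell, the exporters Abcc3 and Abcc4 among those that rose; the number that rose was 3 without EtOH 3, EtOH 7 or Pair 16. Acox2, the peroxisomal oxidase of bile acid side chains, counted 2434, 2698, 2636 and 3007 in EtOH vehicle mice and 1754, 1695, 1645 and 1894 in Pair vehicle mice, and rose by 0.62 ± 0.11 (SE) on the log2 scale (adjusted p = 0.00249). Cyp7a1, the rate-limiting enzyme, counted 639, 4286, 1504 and 2037 in EtOH vehicle mice and 1446, 1109, 1969 and 2095 in Pair vehicle mice, with the lowest and the highest values both in ethanol-fed mice (0.09 ± 0.47, adjusted p = 0.929). Nr1h4, the bile acid receptor FXR, counted 943, 1133, 1079.9 and 1080.2 in EtOH vehicle mice and 1476, 1240.5, 1939.6 and 1420.2 in Pair vehicle mice, and fell by 0.50 ± 0.12 (SE) on the log2 scale (adjusted p = 0.0101); its adjusted p was 0.0567 on the deposited scale.

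Choline and one-carbon genes are of interest here because gut bacteria turn choline to trimethylamine. Of 22 choline and methionine genes 3 rose and 2, Mtr and Chkb, fell, where 6.55% of all genes rose and 5.71% fell. On the deposited scale 12 rose and none fell, with adjusted p values of 0.0766 for Mtr and 0.073 for Chkb. With only the 8 vehicle libraries fitted, 4 rose and 2 fell. Bhmt, which passes a methyl group from betaine to homocysteine, counted 61684, 61377, 59075 and 58981 in EtOH vehicle mice and 32796, 38397, 29128 and 18852 in Pair vehicle mice, with no overlap (1.06 ± 0.39 (SE), adjusted p = 0.0808). Its neighbour Bhmt2 counted 3445, 3569, 3998 and 3801 in EtOH vehicle mice and 2649, 2735, 2690.3 and 2799 in Pair vehicle mice, and rose by 0.44 ± 0.10 (SE) on the log2 scale (adjusted p = 0.0117). Cth, which makes cysteine, counted 8971, 7979.7, 7129 and 7237 in EtOH vehicle mice and 4844, 5206, 5040.2 and 4341 in Pair vehicle mice, and rose by 0.69 ± 0.17 (SE) on the log2 scale (adjusted p = 0.0133). Of 5 flavin monooxygenases 1 rose, Fmo5 (0.48 ± 0.14 (SE), adjusted p = 0.0295), with adjusted p values of 0.0785 without EtOH 3, 0.0645 without EtOH 5, 0.085 without EtOH 7, 0.0791 without Pair 10, 0.0532 without Pair 14 and 0.0503 without Pair 16.

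Some zonation genes rose on both sides of the lobule, against 6.55% of all genes that rose and 5.71% that fell. Of 20 perivenous genes, marking the hepatocytes next to the central vein, 4 rose and none fell, and of 20 periportal genes likewise 4 rose and none fell; 1 perivenous gene fell without EtOH 3 or Pair 16. Rhbg, the perivenous ammonium transporter, counted 176, 339, 336 and 359 in EtOH vehicle mice and 138, 138, 143 and 95.1 in Pair vehicle mice, and rose by 1.19 ± 0.24 (SE) on the log2 scale (adjusted p = 0.0044). Cyp2f2, a periportal P450, counted 8380.1, 11112, 7848 and 9554 in EtOH vehicle mice and 5325, 5354, 5079 and 5533 in Pair vehicle mice, and rose by 0.78 ± 0.12 (SE) on the log2 scale (adjusted p = 0.00112). Gldc, the periportal glycine decarboxylase, rose by 0.91 ± 0.13 (SE) on the log2 scale (adjusted p = 0.00055). All 20 periportal genes had a log2 fold change above 0, with a median of 0.33. Without EtOH 7, 16 of them lay above 0, and 18 did without EtOH 3, Pair 12, Pair 14 or Pair 16. Of the 20 perivenous genes 10 lay above 0, with a median of 0.07, and 16 were not called. Glul, the sharpest perivenous marker, did not pass (-0.17 ± 0.09, adjusted p = 0.251). Ppp1r3b, which targets a phosphatase to glycogen and was named after its values were seen, counted 7291, 5931, 9164 and 8244 in EtOH vehicle mice and 4608, 4211, 2897 and 3357 in Pair vehicle mice, and rose by 1.03 ± 0.21 (SE) on the log2 scale (adjusted p = 0.00466).

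Of 23 inflammation genes none rose and 2 fell, 1 without EtOH 1, EtOH 5, EtOH 7, Pair 12, Pair 14 or Pair 16 and 3 without EtOH 3 or Pair 10, and Tnf, Il6, Ccl4, Cxcl2 and Nos2 were below the filter on low values. Of 27 acute phase genes none rose and 2 fell. The number that fell was 1 without EtOH 3, EtOH 5 or Pair 12 and 5 without Pair 16, and 1 rose without Pair 12. In both lists the share that fell is near the 5.71% of all genes. Pair-fed mouse 12 stood apart in these lists. Its Saa1 count was 6851 against 242, 291 and 594 in the other pair-fed mice and 209, 646, 519 and 296 in ethanol-fed mice. Its Cxcl1 count was 1579 against 47.6, 52.5 and 69.8. Neither Saa1 (-0.95, adjusted p = 0.425) nor Cxcl1 (-2.08, adjusted p = 0.0965), the latter named after its values were seen, passed the test. Apcs, serum amyloid P, counted 1039.8, 1035, 999 and 1016 in EtOH vehicle mice and 1819, 2922, 1832 and 2655 in Pair vehicle mice, and fell by 1.14 ± 0.17 (SE) on the log2 scale (adjusted p = 0.00078); without mouse 12 it still passed.

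Of 31 interferon and antigen presentation genes 4 fell and 1 rose, while 2 fell without EtOH 5, and 2 fell and 3 rose on the deposited scale. Irf7, a master factor of the interferon response, counted 239.7, 263, 270.4 and 259.5 in EtOH vehicle mice and 341, 576, 516 and 677 in Pair vehicle mice, and fell by 0.99 ± 0.19 (SE) on the log2 scale (adjusted p = 0.00328). Gbp3, an interferon-induced GTPase, counted 210.3, 214, 186 and 210.4 in EtOH vehicle mice and 337, 342, 353 and 352 in Pair vehicle mice, and fell by 0.75 ± 0.18 (SE) on the log2 scale (adjusted p = 0.0119). In both the diets were apart. Ifi44, an interferon-induced gene outside the list, fell by 1.48 ± 0.31 (SE) on the log2 scale (adjusted p = 0.00521), and the interferon-induced GTPase Tgtp1 fell by 1.44 ± 0.29 (SE) on the log2 scale (adjusted p = 0.0046). Oasl1, a relative of the oligoadenylate synthetases, rose by 0.77 ± 0.18 (SE) on the log2 scale (adjusted p = 0.0115). In IMC mice 9 of the 31 listed genes rose with ethanol and 2 fell. The list's median was 0.17 there and -0.10 in vehicle mice, and the effect differed between the treatments for 4 genes.

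Markers of the other liver cell types were read as a check on the make-up of the samples. Fewer cells of a type and less RNA per cell cannot be told apart in whole liver. None of 6 hepatocyte markers was called, and none of 12 Kupffer cell and macrophage markers, whose summed counts were 5956 to 8415 in EtOH vehicle mice and 3653 to 10132 in Pair vehicle mice. Of the 12, 11 had a fold change above 0, and 6 were called higher without Pair 16. Of 10 sinusoidal endothelial markers 1 rose, Cdh5, the endothelial cadherin (0.45 ± 0.12 (SE), adjusted p = 0.0234), and all 10 had a fold change above 0, with a median of 0.25. Their summed counts did not overlap, with 5082 to 5728 in EtOH vehicle mice and 4279 to 5042 in Pair vehicle mice. The call of Cdh5 was lost in some fits, with adjusted p values of 0.0656 without EtOH 1, 0.0759 without EtOH 5 and 0.0729 without Pair 14, and 2 of the 10 were called without Pair 16. Of 9 stellate cell markers 3 rose, and 5 without Pair 16, with summed counts of 4517 to 5518 in EtOH vehicle mice and 3144 to 4457 in Pair vehicle mice. Lrat, which stores retinol as esters in stellate cells, counted 604, 715, 686 and 614 in EtOH vehicle mice and 257, 336, 188 and 447 in Pair vehicle mice, and rose by 1.16 ± 0.20 (SE) on the log2 scale (adjusted p = 0.00201). Pdgfrb, their growth factor receptor, counted 119, 133, 137 and 142 in EtOH vehicle mice and 76.4, 88.5, 94.4 and 82.9 in Pair vehicle mice, and rose by 0.63 ± 0.14 (SE) on the log2 scale (adjusted p = 0.00931). The collagen gene Col1a1 overlapped between diets (0.81 ± 0.36 (SE), adjusted p = 0.142). Of 26 extracellular matrix genes 5 rose, and 2 without any 1 of EtOH 3, EtOH 5, Pair 10 or Pair 14, 3 without EtOH 1 and 8 without Pair 16. Timp3, a metalloproteinase inhibitor, rose by 0.74 ± 0.15 (SE) on the log2 scale (adjusted p = 0.0039), and Mmp2, a gelatinase, rose by 0.94 ± 0.20 (SE) on the log2 scale (adjusted p = 0.00564). Of the stellate, endothelial and macrophage markers most had a fold change above 0, and their part in these rises was not tested. No tested marker of T and B cells, neutrophils, red blood cells, pancreas or intestine was called, but few could be tested. These were 1 of 7 for T and B cells, 1 of 4 for neutrophils and 4 of 5 for red blood cells. For pancreas 1 of 6 and for intestine 3 of 5 were tested. The pancreatic genes Cpa1, Pnlip and Ins2 had no counts in any of the 8 livers.

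Bile duct markers varied widely among mice. None of 5 tested was called, and Krt19, the duct keratin, counted 8.91, 110.5, 106 and 8.02 in EtOH vehicle mice and 169, 277, 133 and 40.5 in Pair vehicle mice. EtOH 1 and EtOH 7 were far below EtOH 3 and EtOH 5. Slc10a2, a bile acid transporter that liver expresses in bile ducts, was among the largest falls, with 21.4, 28.7, 58.1 and 38.1 in EtOH vehicle mice and 111, 399, 104 and 126 in Pair vehicle mice, and fell by 2.15 ± 0.43 (SE) on the log2 scale (adjusted p = 0.00404). Prom1, also found in duct and progenitor cells, counted 401, 414, 636 and 463 in EtOH vehicle mice and 265, 192, 100.2 and 70.8 in Pair vehicle mice, and rose by 1.76 ± 0.32 (SE) on the log2 scale (adjusted p = 0.00253). The summed duct markers were 594 to 843 in EtOH vehicle mice and 705 to 1215 in Pair vehicle mice, and their part in either result was not tested.

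Small shifts over large families depended on the scale. Of 79 ribosomal protein genes 19 fell and none rose, with a median of -0.27 and 78 of 79 below 0, but on the deposited scale none fell, 1 rose and the median was -0.08 beside a shift of 0.18 for all genes. The number that fell was 8 without EtOH 3, 4 without EtOH 5, 9 without EtOH 7, 7 without Pair 14 and 10 without Pair 16. Of 78 nuclear genes of the respiratory chain 13 fell and none rose, with a median of -0.17 that became 0.02 on the deposited scale, where 1 fell and 2 rose. After rescaling, 1 of the 78 fell without EtOH 5, 3 without Pair 14, 4 without EtOH 7, 6 without Pair 10 and 7 without EtOH 1 or Pair 12. Of 10 tubulin genes, which build microtubules, 4 rose, 2 without EtOH 3, EtOH 5, EtOH 7 or Pair 10 and 1 without Pair 12.

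**Figure D4:**
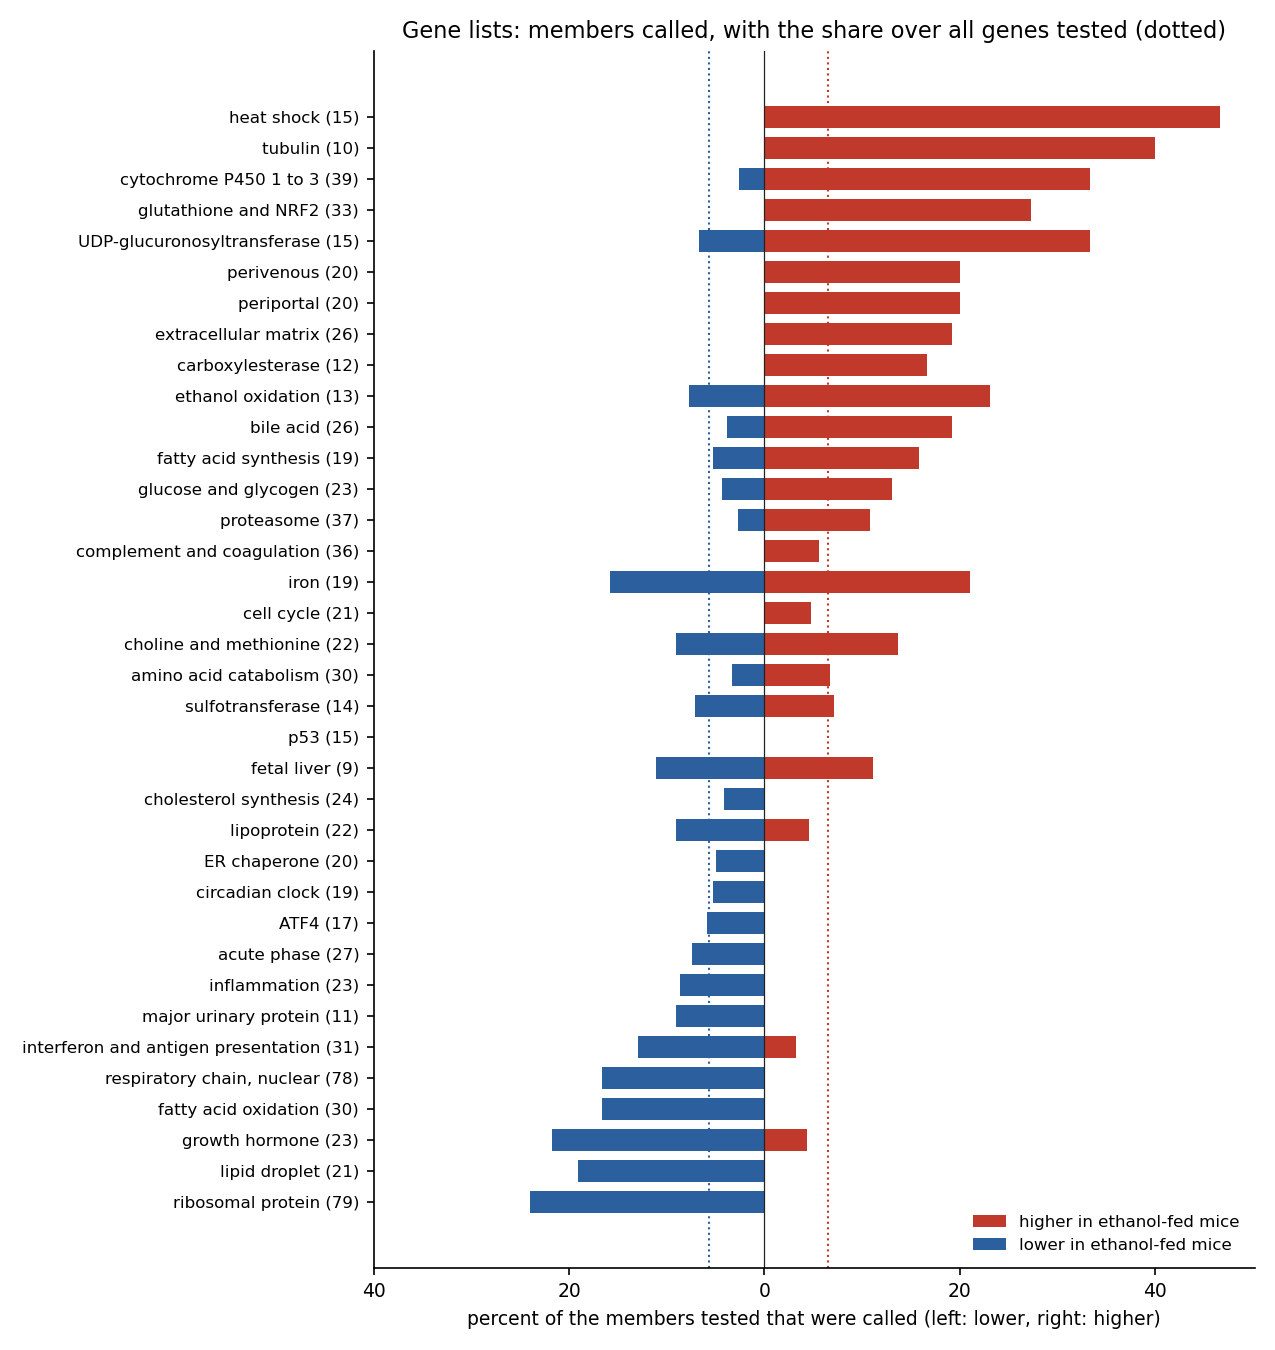
Percent of the tested members of each gene list that were called higher (red, to the right) or lower (blue, to the left) in EtOH vehicle over Pair vehicle, with the number tested in parentheses and dotted lines at the 6.55% and 5.71% of all genes. Heat shock genes extend farthest to the right, with tubulin, P450 and glucuronosyltransferase genes next, and ribosomal protein genes farthest to the left.

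Some of the largest changes lay outside the lists. Slc34a2, a sodium-phosphate cotransporter, counted 205, 129.6, 174 and 101 in EtOH vehicle mice and 11.1, 17.5, 1.17 and 11.1 in Pair vehicle mice, and rose by 4.08 ± 0.56 (SE) on the log2 scale (adjusted p = 0.000459). Tsku, a secreted proteoglycan made by the liver, counted 803, 2287, 1459.8 and 1942 in EtOH vehicle mice and 151, 385, 396 and 370.2 in Pair vehicle mice, and rose by 2.31 ± 0.44 (SE) on the log2 scale (adjusted p = 0.00317). Adam11, a member of the ADAM family without protease activity, counted 464, 428, 443 and 497 in EtOH vehicle mice and 142, 117, 99.1 and 71.8 in Pair vehicle mice, and rose by 2.12 ± 0.23 (SE) on the log2 scale (adjusted p = 5.43e-05). Clic3, a chloride channel protein, was uneven, with 203, 23.4, 169 and 38.1 in EtOH vehicle mice and 19.9, 10.7, 4.66 and 10.1 in Pair vehicle mice, and rose by 2.77 ± 0.65 (SE) on the log2 scale (adjusted p = 0.0112). Among the falls, Junb, an immediate early factor, counted 82.9, 99.8, 62.3 and 105 in EtOH vehicle mice and 265, 942, 255 and 188 in Pair vehicle mice, and fell by 1.93 ± 0.44 (SE) on the log2 scale (adjusted p = 0.00934); mouse 12 held the highest of its values. Slc39a5, a zinc importer, counted 22.3, 12.8, 17.7 and 30.1 in EtOH vehicle mice and 102, 71.0, 62.9 and 55.6 in Pair vehicle mice, and fell by 1.79 ± 0.40 (SE) on the log2 scale (adjusted p = 0.00862). The long noncoding RNA Epb41l4aos fell by 1.70 ± 0.22 (SE) on the log2 scale (adjusted p = 0.00024). Only genes whose diets lay apart could enter as a largest rise or fall, so the separation in these genes follows from their choice.

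Among genes with a mean above 1000, some moderate changes were very even across mice. These genes were picked by their smallest p, which favors even values. Acsf2, an acyl-CoA synthetase, counted 2844, 2899, 2778 and 2885 in EtOH vehicle mice and 1561, 1548, 1646 and 1683 in Pair vehicle mice, a narrow range in each diet, and rose by 0.83 ± 0.07 (SE) on the log2 scale (adjusted p = 5.08e-06). Mmp19, a metalloproteinase, rose by 0.92 ± 0.10 (SE) on the log2 scale (adjusted p = 3.64e-05), Lasp1, an actin-binding protein, rose by 0.63 ± 0.08 (SE) on the log2 scale (adjusted p = 0.000348), and Pnkd rose by 0.98 ± 0.13 (SE) on the log2 scale (adjusted p = 0.000348).

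The 8 mice given IMC gave a separate reading of the ethanol effect that shares no mouse with the vehicle mice. For ethanol feeding combined with IMC, the paper reports that diet consumption and weight were lowered. Ethanol was part of that liquid diet, and the part of intake in any difference between the treatments was not tested. The library numbers run the other way in IMC mice: ethanol-fed vehicle mice hold low and pair-fed vehicle mice high numbers. Pair IMC holds 2, 4, 6 and 8 and EtOH IMC 9, 11, 13 and 15. The labels do not call these numbers batches, and in vehicle mice alone diet and numbering cannot be told apart. In IMC mice 2050 genes differed between the diets (16.8%), 7.96% of all higher and 8.83% lower with ethanol. Of the 1496 genes called in vehicle mice 1280 had the same sign there (85.56%, against 66.04% of all genes tested) and 585 were called the same way, 39.1% of those called in vehicle mice and 28.54% of those called in IMC mice. Another 23 were called the opposite way, 17 that had risen and 6 that had fallen. Averaging both treatments balances low against high numbers, but all 8 ethanol-fed mice hold odd and all 8 pair-fed mice even numbers, so that diet and numbering cannot be told apart in this respect in any of the 16. In that average 682 of the 799 and 579 of the 697 were called in the same direction. The average includes the vehicle mice by which these genes were called, so much of this agreement is built in.

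The gene lists of drug metabolism were not called alike in IMC mice. Of the 39 P450 and receptor genes 14 rose and 11 fell there, against 13 and 1 in vehicle mice. Among those that fell were Cyp2c39, with a log2 fold change of -2.48 in IMC mice and -0.76 in vehicle mice, and Cyp2c40, with -1.51 and -0.40. For these 2 genes and Cyp2f2, of the 39, the effect differed between the treatments (adjusted p = 0.0446 for Cyp2c39 and 0.0483 for Cyp2c40, limma). That call was lost for Cyp2c39 without any 1 of the 8 vehicle mice and for Cyp2c40 without any 1 but Pair 16. Of 15 glucuronosyltransferases 3 rose and 3 fell in IMC mice, and 4 differed between the treatments (Ugt1a5, Ugt1a9, Ugt3a1 and Ugt3a2). Of 33 glutathione and NRF2 genes 16 rose and 1 fell, and 1 differed, the carbonyl reductase gene Cbr3. Of 15 heat shock genes 7 rose and none fell, and none differed. Cyp2b10, Cyp2c37, Gstm3, Abcc3 and Hspb1 were called in IMC mice too. Ugt1a9 and Acsf2, whose effects in IMC mice are given below, were not. In IMC mice the log2 fold change of Cyp2b10 was 6.15 ± 0.37 (adjusted p = 2.43e-08), with 6398, 1454, 5312 and 4714 in ethanol-fed and 67.7, 53.2, 31.9 and 73.8 in pair-fed mice. Cyp2c37, Gstm3, Abcc3 and Hspb1 had 1.32 ± 0.13, 2.48 ± 0.36, 1.51 ± 0.13 and 2.18 ± 0.29 (adjusted p = 4.77e-06, 0.000283, 1.22e-06 and 0.000167). The ethanol effect in vehicle mice differed from that in IMC mice by -0.40 ± 0.53 for Cyp2b10, 0.02 ± 0.18 for Cyp2c37, -0.30 ± 0.51 for Gstm3, -0.38 ± 0.18 for Abcc3 and 0.07 ± 0.41 for Hspb1, and none of the 5 differences passed the test. Of the genes whose diets overlap in IMC mice, Cyp2b9 (0.64 ± 0.16, adjusted p = 0.0698) and Cyp3a11 (0.50 ± 0.21, adjusted p = 0.25) did not pass the test of the difference either.

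The ethanol effect differed between vehicle and IMC mice in 139 genes (1.14%), 63 of them among the 1496. That count was 54 without EtOH 5, 60 without EtOH 7 or Pair 12, 66 without EtOH 3, 68 without EtOH 1 and 86 without Pair 14, and the genes below kept the call in each of these fits unless a value is given. Slc34a2 had 41.9, 6.73, 20.8 and 13.2 in EtOH IMC and 18.2, 40.6, 31.9 and 38.8 in Pair IMC mice, and its vehicle effect exceeded its IMC effect by 4.92 ± 0.79 on the log2 scale (adjusted p = 0.00646). Hamp had 6369, 7897, 4564 and 12189 in EtOH IMC and 2086, 4112, 7414 and 4228 in Pair IMC mice, without a call (0.84 ± 0.47, adjusted p = 0.23), and the effects differed by -3.31 ± 0.66 (adjusted p = 0.0229). Its adjusted p was 0.0566 without EtOH 5, 0.0524 without EtOH 7 and 0.0528 without Pair 12. Id1 (-2.15 ± 0.50, adjusted p = 0.0468) and Socs2 (-1.96 ± 0.38, adjusted p = 0.0192) differed likewise, and neither was called in IMC mice (0.34 ± 0.35 and -0.10 ± 0.27). The Id1 difference was lost without any 1 of the 8 mice other than Pair 10 (adjusted p from 0.0512 without Pair 16 to 0.0903 without EtOH 5, with 0.0896 without EtOH 1, 0.0836 without EtOH 3, 0.0783 without EtOH 7, 0.0881 without Pair 12 and 0.0884 without Pair 14). Cyp2f2 rose in vehicle mice and fell by 0.71 in IMC mice (adjusted p = 0.0011), a difference of effects of 1.49 ± 0.17 (adjusted p = 0.000439). Ugt1a9 (1.59 ± 0.22, adjusted p = 0.00168) and Acsf2 (0.73 ± 0.10, adjusted p = 0.00213) had larger effects in vehicle mice, and neither was called in IMC mice (0.24 ± 0.15 and 0.10 ± 0.07). Fabp5 fell more in IMC mice, with 47.9, 49.7, 53.4 and 73.3 against 1258, 915, 1168 and 3462 (2.90 ± 0.53, adjusted p = 0.0132).

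**Figure D5:**
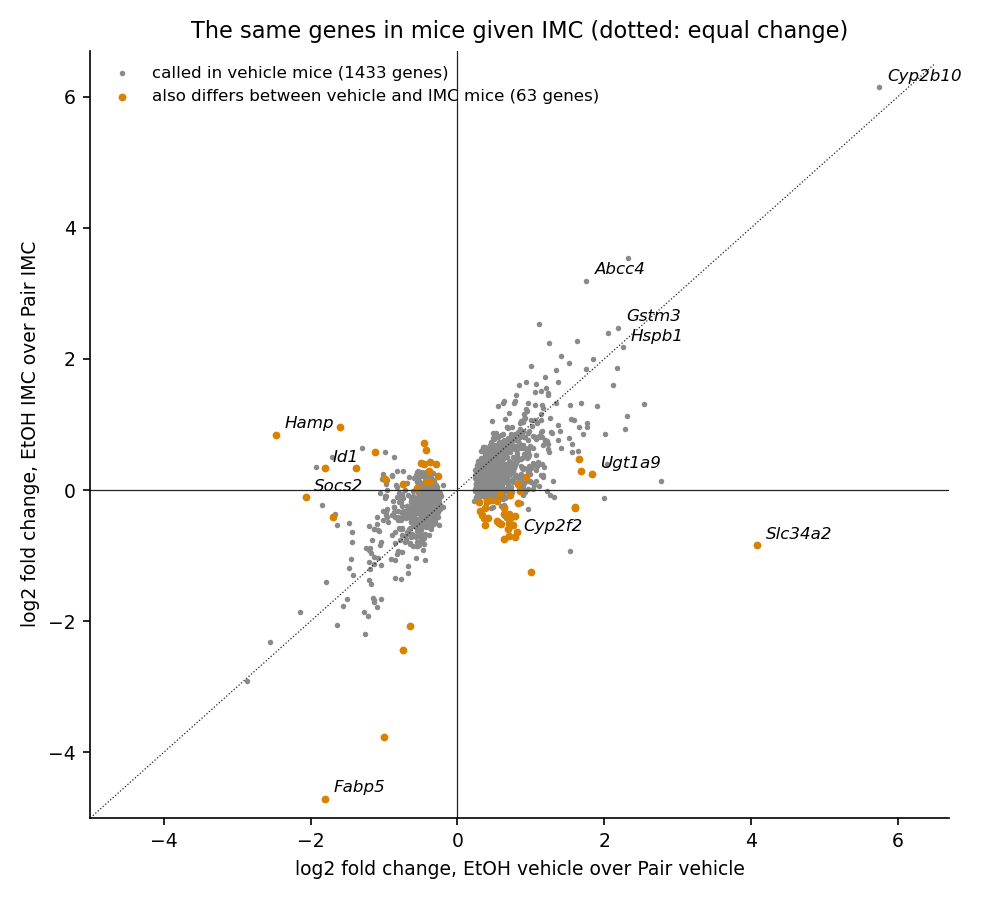
Log2 fold change of ethanol over pair feeding in IMC mice (vertical axis) against that in vehicle mice (horizontal axis) for the 1496 genes called in vehicle mice, with 63 genes whose effect differed between treatments in orange and equal change as a dotted line. Cyp2b10 lies near the dotted line at the top right, and Slc34a2 and Hamp lie on the far side of the horizontal zero line.

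The median SD of log2 counts over genes was 0.15 in EtOH vehicle mice and 0.19 in Pair vehicle mice, and 35.66% of genes varied more among the ethanol-fed mice. Clock genes differed within a diet. Arntl, the core activator, counted 372, 108, 312 and 94.2 in EtOH vehicle mice and 172, 77.8, 45.5 and 59.7 in Pair vehicle mice, and Dbp, an output gene of opposite phase, 31.2, 296, 55.6 and 459.9 in EtOH vehicle mice and 98.5, 350, 988 and 669.6 in Pair vehicle mice. EtOH 1 and EtOH 5 were high in Arntl and low in Dbp, and EtOH 3 and EtOH 7 the reverse. Neither Arntl (1.25, adjusted p = 0.107) nor Dbp (-1.63, adjusted p = 0.251) passed the test between diets. Of 19 clock genes 1 passed, Nr1d2, which fell (-0.81 ± 0.24 (SE), adjusted p = 0.0351), with adjusted p values of 0.0924 without EtOH 1, 0.118 without EtOH 5, 0.0998 without Pair 14 and 0.0762 without Pair 16 and of 0.0657 on the deposited scale. A fall of 1 in 19 is near the 5.71% of all genes. Clic3 divided the ethanol-fed mice in the same way, and the part of the clock in that result was not tested.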

How the data were processed

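Total RNA of whole liver was taken from 16 mice, and libraries were sequenced with 100-base reads, single-end per the study's methods and paired-end per the labels. Per the submitters' processing notes and methods, the authors used Trim Galore, FastQC, STAR, mm10 and edgeR; the counting tool is not given in the sources used here. The deposited values are a normalized signal, 1 column per mouse: every one is a whole number of reads times a constant of its library (100% of values in each library within a tolerance of 0.01). The authors' methods name upper quantile normalization, while the constants track a median ratio taken within each diet. The table's 27212 rows were reduced to 24082 gene IDs, of which 24069 were in GENCODE vM21, and 0 other columns of per-sample values were present.

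All 16 columns were rescaled by median ratios, and genes with at least 10 in at least 4 of the 8 vehicle libraries were tested with limma 3.58.1 (R 4.3.3) on log2(rescaled count + 1), with 4 group means fitted over 16 libraries, a mean-variance trend and Benjamini-Hochberg adjustment at 0.05. Fold changes are on that scale and understate the change of low genes. edgeR 4.0.16 and DESeq2 1.42.0 were run on the recovered whole reads of 15 libraries, leaving out EtOH IMC library 15, whose step lay too close to 1 to be secured. The fit was tested on simulated data with known changes. Promoters came from RefSeq (GRCm38.p6) and were searched in Python 3.11.15, and figures were drawn with matplotlib 3.10.9. Alternatives were the scaling, pseudocount, filter, trend, tool, samples fitted and leaving out each mouse.

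The members and gene lists were chosen with earlier results of these data known. Named genes were the 12 largest rises and 12 largest falls without overlap and with a mean of at least 50 in the higher group, predicted genes left out, the 10 smallest p-values at a mean of at least 1000, the fixed index genes of each list with up to 4 members of smallest p, and markers that bear on a result. Genes outside this rule, named after their values were seen, are Atoh8, Bmp6, Cbr3, Chordc1, Cish, Cxcl1, Cyp2b9, Cyp2b13, Cyp2c39, Cyp2c40, Dmbt1, Dnaja1, Fkbp4, Gstm1, Hamp2, Herpud1, Hspa8, Hspd1, Hspe1, Hsph1, Id2, Id3, Nr1i2, Nr1i3, Por, Ppp1r3b, Slc40a1, Smad7, Stip1, Ugt1a5 and Ugt3a1 and those named without values. Between 9632659 and 12601199 reads were counted on genes per library. Some items are not reported here.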

Additional observations from a re-analysis of the deposited data

Results flagged for a closer look

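Of 244 sets of 4 vehicle mice looked at for the 122 genes named, 15 held a mouse whose distance from the nearest of the others as a share of the whole range exceeded Dixon's 95% critical value, and chance alone gives about 1 in 20. Pair 12 was high in Saa1 (6851, the others 242 to 594), Cxcl1 (1579, the others 47.6 to 69.8), Junb (942, the others 188 to 265) and Slc10a2 (399, the others 104 to 126). Junb and Slc10a2 were called lower in ethanol-fed mice, and both calls held without Pair 12. Pair 10 was low in Hamp (2757, the others 9942 to 11122) and Tsku (151, the others 370.2 to 396) and high in Hspd1 (6716, the others 5871 to 5939.9). Pair 16 was low in Aldh2 (18111, the others 22878 to 23671) and Rhbg (95.1, the others 138 to 143), and Pair 14 was high in Nqo1 (158, the others 134 to 137). EtOH 5 was low in Cyp2c37 (16482, the others 21034 to 21482), Gbp3 (186, the others 210.3 to 214) and Tgtp1 (14.3, the others 24.9 to 25.5), and EtOH 1 was low in Rhbg (176, the others 336 to 359) and Cbr3 (4.46, the others 13.03 to 14.3).

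For 19 of the genes named, the ethanol effect in vehicle mice differed from that in IMC mice by limma's test of the difference, given here as vehicle minus IMC on the log2 scale. It was larger in vehicle mice for Slc34a2 (4.92, adjusted p = 0.00646), Ugt1a9 (1.59, adjusted p = 0.00168), Cyp2f2 (1.49, adjusted p = 0.000439), Acsf2 (0.73, adjusted p = 0.00213) and Pdgfrb (0.99, adjusted p = 0.0247). Hamp (-3.31, adjusted p = 0.0229), Id1 (-2.15, adjusted p = 0.0468), Socs2 (-1.96, adjusted p = 0.0192), Epb41l4aos (-1.29, adjusted p = 0.0483) and Irf7 (-1.16, adjusted p = 0.0446) had the more negative effect in vehicle mice. Fabp5 (2.90, adjusted p = 0.0132), Scd1 (2.04, adjusted p = 0.0427), Elovl5 (1.43, adjusted p = 0.00933), Cyp2c39 (1.72, adjusted p = 0.0446), Ugt1a5 (1.71, adjusted p = 0.0136), Ugt3a1 (1.40, adjusted p = 0.00642) and Cyp2c40 (1.12, adjusted p = 0.0483) had the more negative effect in IMC mice. Ugt3a2 (0.48, adjusted p = 0.0449) was called higher in vehicle mice and had a negative fold change in IMC mice, and Cbr3 (-4.80, adjusted p = 0.000362) was called higher in IMC mice and not in vehicle mice. Leaving out 1 vehicle mouse ended the call of Cyp2c39 in all 8 cases, of Cyp2c40, Epb41l4aos, Id1, Irf7, Scd1 and Ugt3a2 in most and of Hamp and Pdgfrb in some, and of none of the others.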

How the results depend on the processing

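Of 151 called genes that the naming rule or the later additions picked, 91 kept an adjusted p under 0.05 in each of the 19 alternatives that tested them, and no direction was reversed. Genes changed in vehicle mice numbered 1496 (799 higher, 697 lower). On the deposited values they numbered 3006 (2806 and 200), and averaged over vehicle and IMC mice 3249. Leaving out 1 mouse gave 807 to 1361 in all (807 without EtOH 5, 980 without Pair 14), 476 to 760 higher (476 without EtOH 5) and 331 to 601 lower (331 without EtOH 5, 420 without Pair 14, 451 without EtOH 7). DESeq2 gave 1873, of which 1466 were among the 1496, and edgeR 1589, of which 1437 were. The other settings gave between 1305 and 1572. Called members of the gene lists numbered 161 and 98 to 152 without 1 mouse (98 without EtOH 5, 104 without EtOH 7), and called named genes 110 to 130 without 1 mouse.

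In IMC mice 2050 genes were called, 3609 on the deposited values and 1354 by edgeR, and 1902 to 2136 without 1 vehicle mouse. The difference between the effects was called in 139 genes, in 259 by DESeq2, 73 by edgeR, 84 with no filter on low values, 81 with no mean-variance trend, and 54 to 162 without 1 vehicle mouse (54, 60, 60, 66, 68 and 86 in the lowest 6). Fewer samples were fitted when a mouse was left out; the cause of the other shifts was not tested. No paired analysis was possible because the labels do not say which pair-fed mice were matched to which ethanol-fed mice. Low counts limit genes near 10 reads, and library numbers cannot be told apart from diet, by order in vehicle mice and by odd against even in all mice.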

Other observations

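Genes of mucous and duct epithelium varied widely among mice of the same diet, and were looked at after their values were seen. Dmbt1, a mucosal scavenger protein of ducts and gallbladder, counted 0.891, 1326, 3373 and 19.04 in EtOH vehicle mice and 2799.9, 4197, 3203 and 656 in Pair vehicle mice, and 578, 2811, 0 and 2002 in EtOH IMC and 631, 538, 526 and 41.3 in Pair IMC mice. EtOH 1 and EtOH 7 were low and EtOH 3 and EtOH 5 high, as for Krt19 in the same mice. The gene did not pass the test between vehicle diets (-4.29 ± 2.25, adjusted p = 0.224, limma), and how much tissue of ducts or gallbladder each sample held was not measured.

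Albumin took 8.92%, 7.71%, 9.96% and 13.04% of reads in the pair-fed vehicle mice 10, 12, 14 and 16 and 11.71% to 12.03% in the 4 Pair IMC mice, against 6.74% to 9.12% in the 8 ethanol-fed mice. Pair 16 lay above every Pair IMC mouse, and the other pair-fed vehicle mice lay within the ethanol-fed range or just above it.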
